A study of Mus musculus with 6 samples.

Results

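CCR2 is the chemokine receptor of classical monocytes, and CCL2, CCL7 and CCL12 are ligands through which it draws these cells into inflamed tissue. CCL8 is encoded beside them and is grouped with them, although CCR8 is also a known receptor of mouse CCL8. Their 5 genes, Ccr2, Ccl2, Ccl7, Ccl8 and Ccl12, were taken by symbol from the 28692 genes of the count matrices, and each symbol stood on 1 row. In the central nervous system the ligands are known as products of activated glia and macrophages. The receptor marks blood-derived monocytes and is absent from resting microglia, the resident macrophages of the brain. Mice that lack Ccr2 develop little experimental autoimmune encephalomyelitis (EAE) in many studies. The receptor is also found on natural killer (NK) cells, dendritic cells and T cells that have met antigen.

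The question of the series was what the microRNA miR-155, which activated leukocytes induce, does in immune cells of the inflamed brain. C57BL/6 mice, wild type (WT) or carrying the miR-155KO genotype (KO), were sampled on days 0, 13 and 21 of EAE. Each of the 6 groups gave 1 library of single-cell RNA ends, from 5 mice according to the design text, and no label ties a cell to an animal. The cells had been sorted as live, DAPI-negative and CD45-positive, so non-leukocyte sources of these chemokines, such as astrocytes and endothelium, were largely gated out. The knockout was not restricted to a cell type in the labels, and no label gives an age. The tissue is labelled brain, while the protocol also names spinal cord. Both titles of a day share a number prefix, so day and whatever that prefix marks cannot be told apart.

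After filtering, 20007 of 20030 cell barcodes remained, between 1678 and 5625 per library, and the median barcode held 3021 to 4375 unique molecular identifiers (UMIs). Mir155hg, which is the host gene of the microRNA, was read with 2 UMIs on day 0, 45 on day 13 and 59 on day 21 in WT, and with 0, 0 and 1 in KO. Barcodes were assigned to classes by the number of marker genes with a UMI. The classes are called microglia-like, monocyte/macrophage-like and so on. The 6152 microglia-like barcodes had a median of 8 of their 10 markers, and 317 of them stood at the cut of 5. The 2028 monocyte/macrophage-like barcodes had a median of 7 of 12 markers, and 346 stood at the cut of 5. The border between that class and the ungated or mixed barcodes is therefore broad. A barcode that passed the gates of 2 lineages was counted as mixed. Mixed barcodes can be doublets or cells carrying debris, and their share of a library was 6.47% (WT) and 4.29% (KO) on day 0, 19.8% and 24.9% on day 13, and 24.96% and 11.2% on day 21.

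The positions of the 5 genes and the sequences that bear on a miR-155 knockout are given first. In RefSeq on build GRCm38.p6, Ccl2 lies at chr11:82035577-82037452, Ccl7 at chr11:82045712-82047525, Ccl12 at chr11:82101845-82103399 and Ccl8 at chr11:82115185-82116799. The 4 ligand genes thus span 81223 bases of chromosome 11, with 2 other RefSeq genes between them. Ccr2 lies at chr9:124101918-124109140. Of its 6745 spliced 31-base words, 224 also occur in other genes, and none of the words of the ligands occur in another gene. The microRNA missing from the KO mice is shown with its seed, bases 2 to 8, in capitals.
mmu-miR-155-5p: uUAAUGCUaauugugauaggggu
The bases shown, those of the mature microRNA, lie at chr16:84714143-84714165, plus strand. No match to the whole seed was found in the 3′ untranslated regions of the 5 genes. The only match to the shorter seed of bases 2 to 7 stood in 3 of 4 annotated Ccr2 transcripts, at chr9:124107755-124107760. It is shown with the matched bases in capitals.
Ccr2 site: tttataaaatatGCATTAttagtg
Among 20984 protein-coding genes, 19.5% held such a 6-base match and 8.3% held the match of bases 2 to 8, each in the longest annotated region. A match of letters is a description and does not show that the microRNA binds there.

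Promoter windows of RefSeq, 250 bases before to 50 after a start the table chose, were at hand for 3 of the 5 genes. Those of the neighbours Ccl12 and Ccl8 are shown because Ccl12 was the ligand with the highest level and Ccl8 the one with the fewest sources. The capitals mark the letters TATAAA, which stand 31 and 32 bases before the start.
Ccl12 (chr11:82101595-82101894, plus strand): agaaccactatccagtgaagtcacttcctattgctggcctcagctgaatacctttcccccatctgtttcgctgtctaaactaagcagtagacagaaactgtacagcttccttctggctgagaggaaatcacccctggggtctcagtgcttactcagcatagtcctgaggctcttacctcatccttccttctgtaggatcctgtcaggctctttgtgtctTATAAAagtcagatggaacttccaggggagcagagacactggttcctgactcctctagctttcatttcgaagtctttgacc
Ccl8 (chr11:82114935-82115234, plus strand): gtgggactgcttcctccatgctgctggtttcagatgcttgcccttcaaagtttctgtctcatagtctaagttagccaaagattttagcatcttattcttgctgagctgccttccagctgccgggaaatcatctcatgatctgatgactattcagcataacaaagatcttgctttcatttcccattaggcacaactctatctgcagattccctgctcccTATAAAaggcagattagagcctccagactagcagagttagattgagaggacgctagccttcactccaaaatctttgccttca
Both strands were searched for the letters of 6 motifs. None of the other 5 was found in the 3 windows. They were GGG and CC set 5 bases apart for NF-kB, TGANTCA for AP-1, a pair of GAAA set 2 bases apart for the interferon-stimulated response element, TTCNNNGAA for STAT sites and TTGCNNAA for C/EBP. TATAAA was absent from the Ccr2 window at chr9:124101933-124102232, which is set around a start inside the gene as given above and so holds no base upstream of it. Of 32851 promoters, 13.6% held TATAAA, 50.8% the NF-kB letters, 7.8% those of AP-1, 3.4% those of the interferon element, 8.3% those of STAT and 10.8% those of C/EBP. Absence from so short a window says nothing about elements farther upstream.

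Among the ligands, Ccl12 had the most transcripts in every library. Over whole libraries, Ccl12 stood at 334 CPM (UMIs of a gene scaled to a common total of all UMIs) in WT and 272 in KO on day 0, at 583 and 454 on day 13 and at 404 and 595 on day 21. Ccl2 stood at 176 and 115, 149 and 175, and 157 and 126 CPM in the same order. Library levels of Ccl2 thus covered a narrow range, while the classes that carried it changed with day. Ccl7 stood at 9.35 and 14.1 CPM on day 0, 42.1 and 62.1 on day 13 and 52.0 and 25.9 on day 21, so each diseased library was above both of day 0. Ccl8 had 0 and 8 UMIs on day 0, 597 and 256 on day 13 and 89 and 127 on day 21. In such sums, fewer cells of a type and less RNA per cell cannot be told apart, which is why the classes are described next.

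On day 0, microglia-like barcodes held 83.8% of the Ccl2 UMIs of the WT library and 94.2% of those of the KO library. They were 61.1% and 72.7% of the cells. For Ccl12 the shares were 88.5% and 93.0%, and for Ccl7 they were 85.0% and 83.2%. In the diseased libraries these shares were lower. On day 13 microglia-like barcodes held 51.8% of Ccl2 UMIs in WT and 37.0% in KO, and on day 21 they held 13.4% in WT and 70.7% in KO. Of Ccl12 UMIs they held 61.3% and 48.0% on day 13 and 28.9% and 76.5% on day 21. The day 21 libraries therefore differed widely, and their makeup differed with them, since microglia-like barcodes were 8.92% of WT cells and 45.9% of KO cells. Mixed barcodes of every kind held a large part of the rest, from 3.03% of Ccl2 UMIs in KO on day 0 to 50.2% in WT on day 21. Counting the mixed barcodes of microglia with T and of microglia with monocytes as well, the microglial share of Ccl2 was 89.6% and 94.5% on day 0. It was 71.6% and 50.4% on day 13, and 38.2% and 84.5% on day 21. Barcodes that passed the microglia gate together with other gates are not in these shares.

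**Figure D1:**
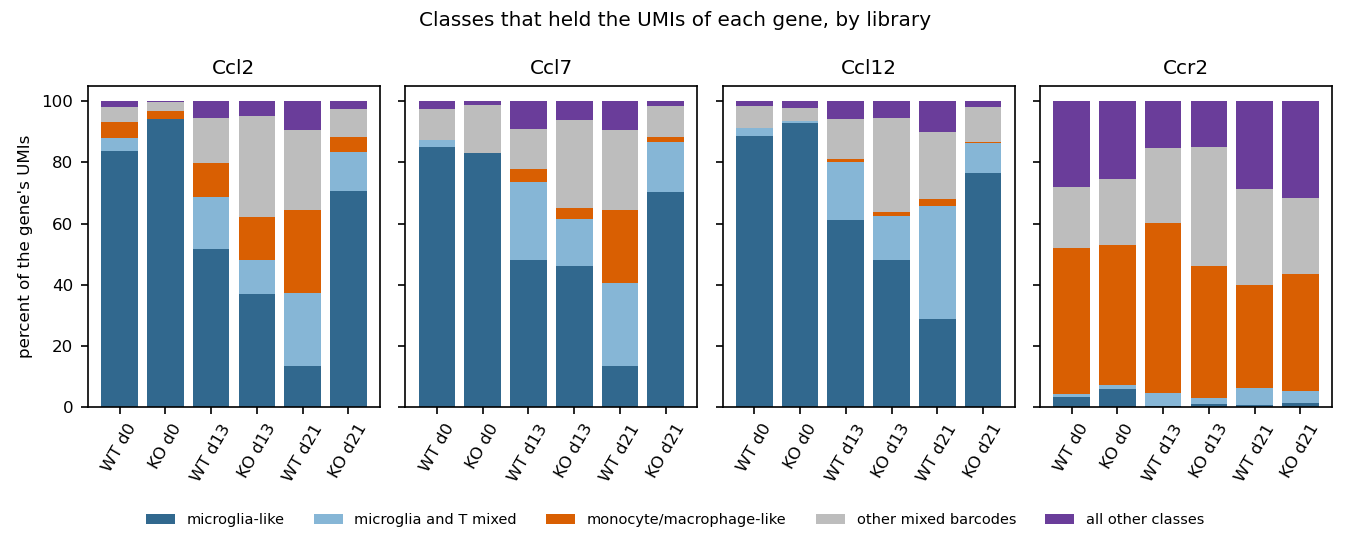
Share of the UMIs of Ccl2, Ccl7, Ccl12 and Ccr2 (vertical axis, percent) held by each class in each library, with KO and WT bars for days 0, 13 and 21. Microglia-like barcodes held 83.8% of Ccl2 in WT on day 0 and 13.4% on day 21, while Ccr2 was held by monocyte/macrophage-like barcodes more than by any other single class shown.

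Monocyte/macrophage-like barcodes were a second source of Ccl2. They held 5.19% and 2.61% of its UMIs on day 0, 11.1% and 14.1% on day 13, and 27.1% in WT against 4.86% in KO on day 21. For Ccl7 the same class held 0% in both libraries of day 0, 4.22% and 3.39% on day 13, and 24.1% in WT against 1.75% in KO on day 21. Little Ccl12 came from these cells, whose level stayed between 4.38 and 76.2 CPM in the 6 libraries. The low end of that range lies where transcripts of other cells are also found. B-like barcodes, which are not a known source of Ccl12, held 8.86 to 27.5 CPM of it and neutrophil-like barcodes held 0 to 29.99.

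Within microglia-like barcodes all 3 main ligands were higher on day 13 than on day 0. Ccl2 stood at 274 CPM in WT and 165 in KO on day 0, at 525 and 788 on day 13, and at 399 and 260.3 on day 21. Ccl7 stood at 14.8 and 17.8 CPM on day 0, 137.5 and 348 on day 13, and 132 and 53.1 on day 21. Ccl12 stood at 549 and 384 CPM on day 0, 2427 and 2652 on day 13, and 2216 and 1329 on day 21. For each of these ligands both libraries of day 13 were above both libraries of day 0. On day 21 the same held for Ccl7 and Ccl12, while the Ccl2 level of KO on day 21 lay between those of WT and KO on day 0.

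With 2 libraries per day and genotype as a covariate, edgeR's quasi-likelihood test gave log2 changes from day 0 to day 13 of 1.87 ± 0.27 (SE) for Ccl2 (adjusted p = 2.9e-04), 4.09 ± 0.48 for Ccl7 (5.5e-05) and 2.72 ± 0.23 for Ccl12 (4.2e-06). All p-values were adjusted by the Benjamini-Hochberg method over 10433 genes. Of those genes, 16.2% were called higher on day 13. From day 0 to day 21, edgeR called 8.79% of genes higher, among them Ccl7 at 2.67 ± 0.49 (adjusted p = 0.00313) and Ccl12 at 2.17 ± 0.22 (6.4e-05). The Ccl2 change of 0.85 ± 0.27 did not pass there (adjusted p = 0.0552), but passed when any 1 library other than the KO library of day 0 was left out, at 0.50 to 1.23. Both comparisons use the same day 0 libraries. Without any 1 of the 6 libraries, the day 13 changes stayed called, between 1.19 and 2.48 for Ccl2, 2.94 and 5.03 for Ccl7, and 2.31 and 3.10 for Ccl12. From day 13 to day 21 edgeR called 1.3% of genes in either direction and none of these ligands, with changes of -1.02 ± 0.27 for Ccl2 (adjusted p = 0.0914), -1.42 ± 0.44 for Ccl7 (0.156) and -0.55 ± 0.21 for Ccl12 (0.266). All 3 passed without the filter on low counts, without the WT library of day 13 (-1.63, -2.42 and -0.94) and without that of day 21 (-1.31, -2.59 and -0.86). Ccl2 and Ccl7 also passed without either library of day 0, and Ccl2 without the KO library of day 21 (-0.67).

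**Figure D2:**
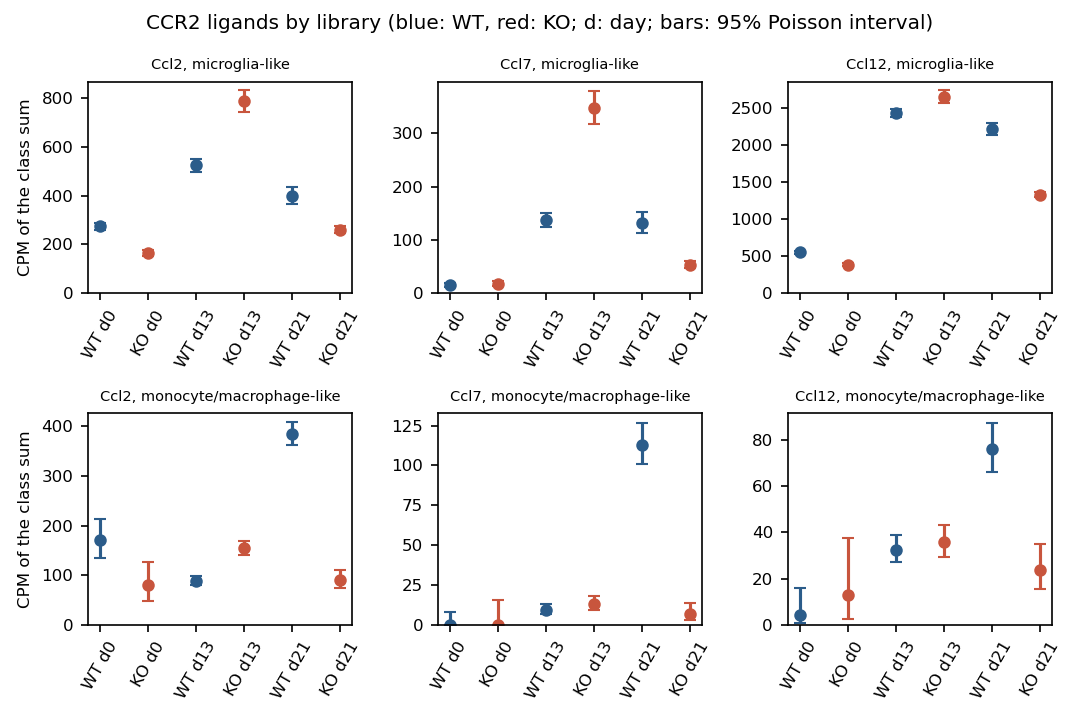
Ccl2, Ccl7 and Ccl12 in microglia-like (top) and monocyte/macrophage-like barcodes (bottom) of each library, as CPM of the summed class counts, with 95% Poisson intervals as bars. In microglia-like barcodes the day 13 libraries reach 788 CPM of Ccl2 and 348 CPM of Ccl7 (KO), and in monocyte/macrophage-like barcodes the WT library of day 21 stands highest for all 3 genes.

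The higher levels on day 13 came with more microglia-like barcodes holding a ligand transcript. Each barcode was thinned to 1500 UMIs to set libraries of unequal depth side by side. That left out 7 shallower barcodes, all of them in the KO library of day 21. Of thinned barcodes, 17.2% in WT and 12.1% in KO held Ccl2 on day 0, 37.2% and 54.3% on day 13, and 29.1% and 20.1% on day 21. Before thinning these shares were 23.9% and 18.3%, 53.3% and 69.2%, and 36.3% and 29.6%. For Ccl12 the thinned shares were 29.7% and 25.02% on day 0, 71.2% and 72.4% on day 13, and 64.3% and 52.1% on day 21. Ccl7 was carried by fewer barcodes, 1.63% and 2.05% unthinned on day 0, 16.0% and 28.1% on day 13, and 12.2% and 6.67% on day 21. Single barcodes held up to 48 UMIs of Ccl7, so its sums rest on a minority of cells.

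Ccl2 and Ccl7 were often found in the same microglia-like barcodes. Among thinned barcodes with Ccl7, Ccl2 was present in 46.2% (WT) and 52.6% (KO) on day 0, 59.8% and 81.3% on day 13, and 58.5% and 49.3% on day 21. Among those without Ccl7 it was present in 16.9% and 11.4%, 34.5% and 47.3%, and 26.5% and 18.9%. The share was higher beside Ccl7 in all 6 libraries, though only 13 (WT) and 19 (KO) barcodes of day 0 held Ccl7. Ccl12 gave smaller gaps in some libraries. In WT on day 21, 31.3% of barcodes with Ccl12 held Ccl2, against 25.1% of those without. In WT on day 0, Ccl7 was about as frequent with Ccl12 as without it, at 0.998% and 0.948%, while in the other libraries it was more frequent with it. In monocyte/macrophage-like barcodes of the WT library of day 21, Ccl2 was present in 84.0% of those with Ccl7 and 20.3% of those without.

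The genes of tissue dissociation, a list of 20 immediate early and heat shock genes that rise when tissue is cut up, were measured beside the ligands because Ccl2 is known to respond to handling. Their summed level in microglia-like barcodes was 35390 and 32130 CPM on day 0, 5883 and 8250 on day 13, and 8392 and 10900 on day 21. Both day 0 libraries were thus above all others. On day 13 the KO library was the higher one for Ccl2, Ccl7 and this list. Within it, barcodes with Ccl2 held 8320 CPM of the list and those without held 8071. The part of handling in the difference between genotypes was not tested. Microglial markers summed to 36630.0 and 37540.0 CPM on day 0, 16540.0 and 13320.0 on day 13, and 16920.0 and 24880.0 on day 21. MHC class II genes, a sign of activated microglia, stood at 211 and 341 CPM on day 0, 6652 and 10200 on day 13, and 7851 and 2449 on day 21.

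Within a day, KO and WT microglia-like barcodes differed, and the direction was not the same on each day. On day 13 the KO to WT ratio was 1.5 for Ccl2 (95% interval 1.39 to 1.62), 2.53 for Ccl7 (2.22 to 2.89) and 1.09 for Ccl12 (1.05 to 1.14). On day 21 it was 0.652 for Ccl2 (0.588 to 0.723), 0.403 for Ccl7 (0.332 to 0.491) and 0.600 for Ccl12 (0.574 to 0.627). On day 0 it was 0.602 for Ccl2 (0.547 to 0.661), 1.20 for Ccl7 (0.854 to 1.70) and 0.699 for Ccl12 (0.656 to 0.744). KO was thus higher for Ccl2 and Ccl7 on day 13 and lower for all 3 on day 21. These intervals cover counting error only, each ratio sets 1 library against 1, and no test was possible. Among all genes with 10 CPM or more, 2.33% were 1.5-fold or more apart on day 0, 8.84% on day 13 and 16.8% on day 21. Ccl2 passed that fold on days 0 and 21 and stood at the cut on day 13, with an interval reaching below it. Ccl7 passed it on days 13 and 21, and Ccl12 on day 21.

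Over all days together, edgeR's quasi-likelihood test with day as a block called 0.0383% of genes between genotypes and none of the ligands. The log2 differences of KO from WT were -0.29 ± 0.22 for Ccl2, 0.12 ± 0.38 for Ccl7 and -0.41 ± 0.18 for Ccl12, with Benjamini-Hochberg adjusted p of 0.9999 or more. This model takes the 3 days as replicates, so differences that change direction between days enter its error. Without either library of day 13 the differences were -0.73 for Ccl2, -0.77 or -0.78 for Ccl7 and -0.68 or -0.69 for Ccl12. Without either library of day 21, that of Ccl7 was 1.05 (without WT) or 1.04 (without KO). With day as a block, a library left alone in its day tells nothing of genotype, so each of these fits rests on the other days. The sign thus followed the day left out, and these values are a description.

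Microglia-like barcodes were also split by MHC class II transcripts. In those with a UMI of H2-Aa, H2-Ab1 or H2-Eb1, Ccl2 stood at 352 and 135.0 CPM on day 0, 534 and 789 on day 13, and 414 and 291 on day 21. The KO to WT ratios of this subset were 0.384 (0.298 to 0.490), 1.48 (1.37 to 1.60) and 0.703 (0.631 to 0.784), on the same sides of 1 as in the whole class. In KO barcodes of day 21 without such a UMI, Ccl2 stood at 197 CPM, and the ratio was 0.907 with an interval of 0.578 to 1.5. Only 45 WT barcodes of that day had no such UMI, against 628 KO barcodes.

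**Figure D3:**
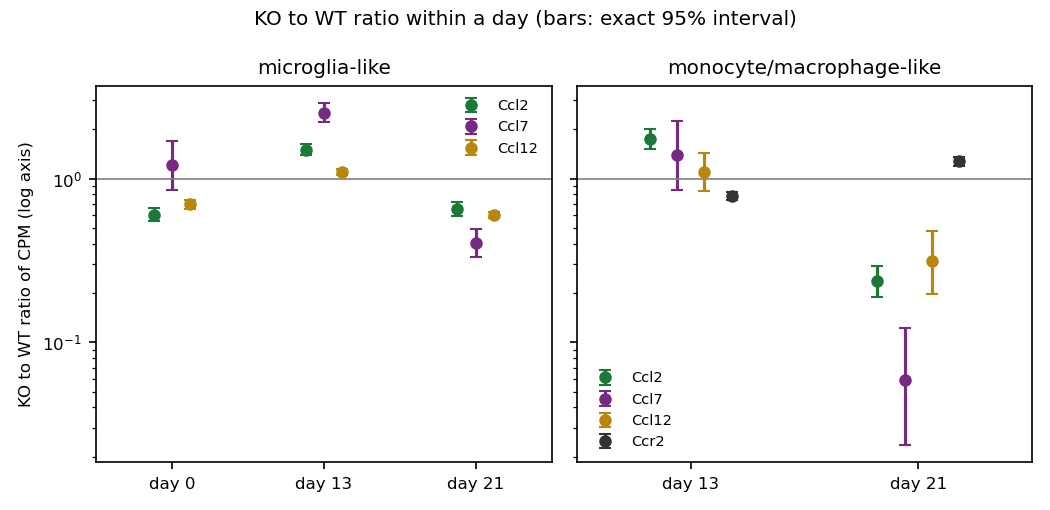
KO to WT ratio of CPM (log axis) for the members in microglia-like barcodes on days 0, 13 and 21 and in monocyte/macrophage-like barcodes on days 13 and 21, with exact 95% intervals for counting error. In microglia-like barcodes Ccl2 goes from 1.5 on day 13 to 0.652 on day 21, and in monocyte/macrophage-like barcodes Ccl7 stands at 0.0590 on day 21.

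Monocyte/macrophage-like barcodes showed larger ratios between genotypes on day 21 than microglia-like ones. Ccl2 stood at 171 CPM in WT and 80.9 in KO on day 0, where the class had only 74 and 38 barcodes. It stood at 88.6 and 154 on day 13 and at 385 and 90.6 on day 21. Ccl7 had no UMI on day 0, which allows up to 6.56 CPM in WT and 12.8 in KO, and stood at 9.53 and 13.2 CPM on day 13 and 113 and 6.67 on day 21. The WT library of day 21 was thus the highest of all 6 for both genes.

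In this class the KO to WT ratio of Ccl2 was 1.74 on day 13 (95% interval 1.51 to 2.01) and 0.235 on day 21 (0.189 to 0.291). For Ccl7 it was 1.38 (0.855 to 2.25) and 0.0590 (0.0235 to 0.123), and for Ccl12 it was 1.1 (0.838 to 1.44) and 0.313 (0.198 to 0.475). Of all genes, 3.91% were 1.5-fold or more apart on day 13 and 20.2% on day 21. The Ccl7 value of day 21 rests on few cells, since 41 of 642 WT barcodes held all 303 UMIs and 1 of them held 60. In KO, 5 of 182 barcodes held 7 UMIs. The 12 markers of the class summed to 22950.0 CPM in WT and 23690.0 in KO on day 13 and to 19370.0 and 14520.0 on day 21. The 10 of them other than Ly6c2 and Plac8 summed to 12680.0 and 13050.0 on day 13 and to 10570.0 and 3829 on day 21, so Ly6c2 and Plac8 together were the higher in KO on day 21. Their part in the ligand differences was not tested.

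Between genotypes over days 13 and 21, edgeR's quasi-likelihood test called 0 of 8730 genes in monocyte/macrophage-like barcodes, 0% after Benjamini-Hochberg adjustment, with 226 at an unadjusted p under 0.05, and DESeq2 called 0. The log2 differences were -0.57 ± 0.54 for Ccl2, -1.54 ± 0.73 for Ccl7, -0.63 ± 0.37 for Ccl12 and 0.00 ± 0.18 for Ccr2, with an adjusted p of 0.9998 each. Without the filter on low counts edgeR called 31 genes, Ccl7 among them (-1.56, adjusted p = 9.3e-05). Between days 13 and 21, edgeR called 3.57% of genes and none of the members, with 2.10 ± 0.73 for Ccl7 (adjusted p = 0.179) and 0.48 ± 0.18 for Ccr2 (0.2185). Without the filter it called Ccl2 (0.71, adjusted p = 0.0291) and Ccl7 (2.08, 9.0e-11). Both genes were higher on day 21 than on day 13 in WT and lower in KO, so neither change was shared by the genotypes.

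Arg1 marks a state of monocyte-derived macrophages in EAE lesions. On day 13, barcodes of the class with Arg1 held 50.2 CPM of Ccl2 in WT and 67.8 in KO, and those without held 97.1 and 177. In the WT library of day 21 the order was the reverse, with 784 CPM of Ccl2 beside Arg1 and 343 without it. Ccl7 stood at 5.90 CPM with Arg1 and 10.3 without in WT on day 13, 6.62 and 14.95 in KO on day 13, and 227.5 and 101 in WT on day 21, so it followed the same pattern, from 4 UMIs beside Arg1 in each library of day 13. Ccr2 was lower beside Arg1 in these 3 libraries. Ccr2 stood at 634 CPM with Arg1 and 963 without in WT on day 13, 471 and 773 in KO on day 13, and 757 and 1040.0 in WT on day 21. On day 21 only 6 KO barcodes held Arg1, with 1 UMI of each of these ligands and 1141 CPM of Ccr2, against 1296 in those without.

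The receptor had its highest levels in monocyte/macrophage-like barcodes. Ccr2 stood there at 1300.0 CPM in WT and 1346 in KO on day 0, at 904 and 709.9 on day 13, and at 1013 and 1292 on day 21. After thinning to 1500 UMIs, 83.8% and 81.6% of these barcodes held a Ccr2 UMI on day 0, 65.9% and 54.7% on day 13, and 69.8% and 79.7% on day 21. Unthinned shares were 97.3% and 100%, 89.1% and 83.2%, and 88.9% and 97.8%. In level and in thinned share both day 13 libraries were the lowest. The KO to WT ratio was 0.785 on day 13 (95% interval 0.743 to 0.830) and 1.28 on day 21 (1.19 to 1.36), neither of them 1.5-fold. Although the level per cell was the highest, this class held only 33.6% to 55.6% of all Ccr2 UMIs of a library, and mixed barcodes held 20.9% to 41.3%.

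**Figure D4:**
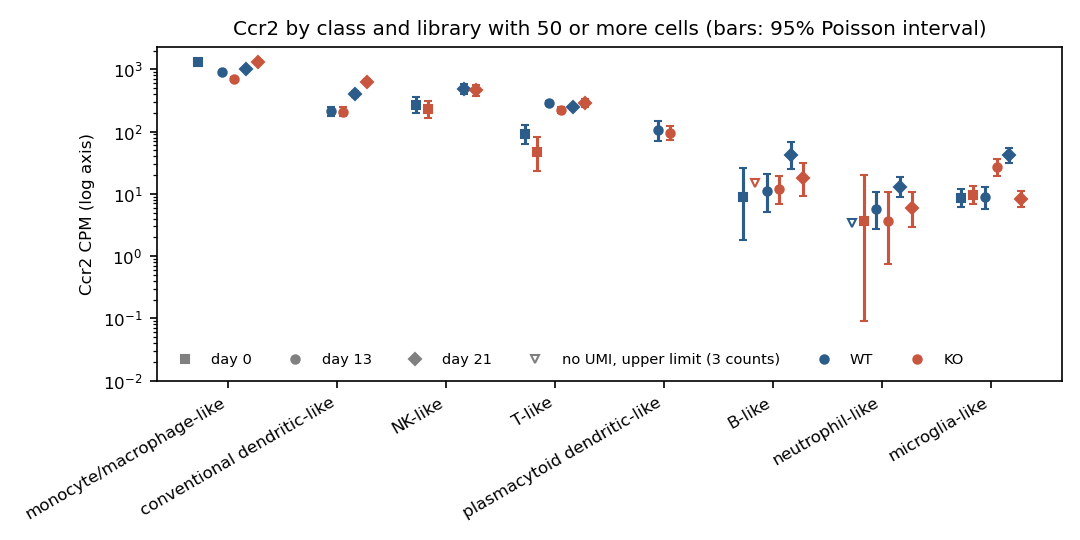
Ccr2 level (CPM of the summed class, log axis) in each class and library with 50 or more barcodes, with squares, circles and diamonds for days 0, 13 and 21, blue for WT, red for KO and 95% Poisson intervals as bars. Monocyte/macrophage-like barcodes lie between 709.9 and 1346 CPM (the latter from 38 barcodes and not drawn), and B-like, neutrophil-like and microglia-like barcodes lie at the bottom.

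Among the classes with 50 or more barcodes in the WT library of day 21, the order after monocyte/macrophage-like barcodes was NK-like at 486 CPM (95% interval 400.4 to 585), conventional dendritic-like at 399 (356 to 446) and T-like at 252 (236.5 to 267). The first pair of these overlapped in their intervals. In KO on day 21 the order was conventional dendritic-like at 634 (573 to 699), NK-like at 463 (373 to 568) and T-like at 288 (249 to 331), with no overlap. On day 13 conventional dendritic-like and T-like barcodes overlapped in KO, at 208 (175 to 245.5) and 221.5 (196 to 249.6).

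Conventional dendritic-like barcodes stood at 213.5 CPM in WT and 208 in KO on day 13, and at 399 and 634 on day 21. On day 0, 16 and 9 barcodes held 817 and 690.1 CPM. Both libraries of day 21 were thus above those of day 13. In edgeR's quasi-likelihood test the log2 change from day 13 to day 21 was 1.30 ± 0.21, with a Benjamini-Hochberg adjusted p of 0.162, where 0 of 5899 genes were called, 0%, and 772 had an unadjusted p under 0.05. DESeq2 called 20 genes, Ccr2 among them (adjusted p = 0.00865). KO stood at 0.973 of WT on day 13 (0.766 to 1.24) and 1.59 on day 21 (1.37 to 1.85).

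Among dendritic-like barcodes, those with Cd209a, a lectin of monocyte-related dendritic cells, held 482 to 912 CPM of Ccr2, the highest of the subsets in each library. Barcodes with Xcr1 or Clec9a, genes of cross-presenting dendritic cells, held 143 and 199 CPM on day 13 and 319 and 647 on day 21. Barcodes with Ccl22 or Fscn1, genes of mature migrating dendritic cells, held 22.3 and 12.7 CPM on day 13 and 91.1 in WT on day 21. The KO library of day 21 went against that order with 586 CPM, from 58 UMIs in 8 of 17 barcodes. These subsets overlap in part and hold few cells.

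NK-like barcodes carried Ccr2 in every library. They stood at 269.8 and 232 CPM on day 0 and 486 and 463 on day 21, and at 500.1 and 328 on day 13 from 29 and 36 barcodes. Both libraries of day 21 were above both of day 0. With edgeR's quasi-likelihood test the log2 change from day 0 to day 21 was 1.06 ± 0.22 (Benjamini-Hochberg adjusted p = 0.00141), in a class where 6.81% of 2716 genes were called higher. DESeq2 did not call it (adjusted p = 0.0786). Between genotypes the ratio was 0.859 (0.551 to 1.33) on day 0 and 0.952 (0.714 to 1.27) on day 21. NK-like barcodes with no transcript of a microglial marker, or of a monocyte marker other than Ly6c2 and Plac8, were a set chosen after the data were seen. There Ccr2 stood at 335 CPM in WT and had 0 UMIs in 8 KO barcodes on day 0. On day 21 it stood at 604 and 424 CPM.

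Plasmacytoid dendritic-like, gamma-delta T-like and nonclassical monocyte-like barcodes were few. Gamma-delta T-like barcodes, 9 to 35 per library, held 168 to 528 CPM of Ccr2. Plasmacytoid dendritic-like barcodes held 104 and 95.5 CPM on day 13, the only day with 50 or more in both libraries. Nonclassical monocytes are known for losing Ccr2, and barcodes of that kind held 0 to 167.5 CPM.

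Microglia-like barcodes held little Ccr2, at 8.29 to 41.6 CPM. A Ccr2 UMI was found in 1.68% to 2.99% of them, against 0% to 3.74% of B-like and 0% to 3.53% of neutrophil-like barcodes, and after thinning in 0.875% to 2.19% against 0% to 2.14% and 0% to 1.96%. Their median depths of 2157 to 3207 UMIs compare with 1929 to 2521 and 2684 to 4769 in those classes. Within each library the binomial intervals of these shares overlapped between microglia-like barcodes and both other classes. The Poisson intervals of the level overlapped with those of B-like barcodes in all 6 libraries. They lay above those of neutrophil-like barcodes in WT on days 0 and 21 and in KO on day 13. In microglia-like barcodes with an MHC class II UMI the KO to WT ratio of Ccr2 was 2.64 (1.05 to 7.47) on day 0. It was 3.22 (1.9 to 5.59) on day 13 and 0.186 (0.115 to 0.297) on day 21, on the same sides of 1 as the ligands on those days. These ratios rest on 7 WT and 18 KO UMIs, 24 and 40, and 53 and 30. The part of monocyte RNA in these barcodes was not tested.

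In T-like barcodes Ccr2 was higher in disease. It stood at 91.7 CPM in WT and 46.4 in KO on day 0, 288 and 221.5 on day 13, and 252 and 288 on day 21. All 4 libraries of days 13 and 21 were above both of day 0. The share of thinned barcodes with Ccr2 was 5.88% and 4.29% on day 0, 30.7% and 26.4% on day 13, and 25.9% and 24.3% on day 21, and unthinned it was 10.9% and 8.57%, 54.1% and 43.2%, and 39.2% and 34.5%. With edgeR's quasi-likelihood test the log2 change was 1.58 ± 0.23 from day 0 to day 13 (Benjamini-Hochberg adjusted p = 2.4e-07) and 1.73 ± 0.23 from day 0 to day 21 (3.9e-08). Of 7448 genes, 9.1% and 6.04% were called higher in these comparisons, which share the day 0 libraries. Without any 1 library the changes stayed called, at 1.30 to 2.21 and 1.45 to 2.36.

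In T-like barcodes the 12 monocyte markers summed to 713 and 616 CPM on day 0 (WT and KO). They summed to 1653 and 1556 on day 13, and to 1650.0 and 911 on day 21. These sums were higher in the diseased libraries, as Ccr2 was. They include Ly6c2 and Plac8, without which the WT library of day 0 stood at 96.8 CPM. Many of these barcodes carried some microglial or monocyte transcripts, so Ccr2 was read again in those with none. Ly6c2 and Plac8 were not counted among the monocyte markers for this set, which was chosen after the data were seen. There it stood at 46.4 and 40.9 CPM on day 0, from 36 and 16 barcodes, at 412 and 235.0 on day 13 and at 228 and 222.5 on day 21. The day 13 and 21 levels again lay above day 0. The KO to WT ratio of the whole class was 0.506 (0.232 to 1.02), 0.770 (0.661 to 0.897) and 1.14 (0.978 to 1.34) on days 0, 13 and 21, and in the barcodes with no such transcript it was 0.571 (0.423 to 0.764) on day 13. Over days, edgeR gave a genotype difference of -0.15 ± 0.15 (adjusted p = 0.999).

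Transcripts of the ligands also appeared in T-like barcodes. Ccl12 stood at 43.3 and 12.7 CPM on day 0, 98.3 and 153 on day 13 and 156 and 57.0 on day 21. From day 0 its log2 change was 1.83 to day 13 (edgeR's quasi-likelihood test, Benjamini-Hochberg adjusted p = 1.9e-04) and 1.76 to day 21 (5.0e-04). Without the WT library of day 21 the latter was 0.43 and not called (adjusted p = 0.751). Microglial markers sat beside it. T-like barcodes held 2.80 to 34.6 Ccl12 UMIs per 100 UMIs of microglial markers, and microglia-like barcodes held 1.02 to 19.9. How much of the T-like signal came from microglial RNA was not tested.

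When T-like barcodes were split by co-receptor transcripts, the genotypes differed in Ccr2 in those with Cd8a. The split was made after the data were seen, and in some libraries the sets have fewer than 50 barcodes. In barcodes with Cd8a and without Cd4, Ccr2 stood at 93.4 CPM in WT and 9.96 in KO on day 0, 193 and 49.2 on day 13, and 223 and 30.3 on day 21. The UMIs behind these levels were 20 and 1, 97 and 9, and 292 and 3. They came from 5 of 59 and 1 of 29 barcodes on day 0, 50 of 95 and 6 of 49 on day 13, and 167 of 423 and 2 of 29 on day 21. On each day WT was above KO, and each KO library was below all 3 WT libraries.

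In barcodes with Cd8a the KO to WT ratios were 0.107 (0.00257 to 0.667), 0.255 (0.113 to 0.504) and 0.136 (0.0279 to 0.401) on days 0, 13 and 21. With day as a block, edgeR's quasi-likelihood test gave a log2 difference of -2.19 ± 0.33 (Benjamini-Hochberg adjusted p = 0.0141), in a fit that called 0.355% of 2820 genes lower in KO and had 311 genes at an unadjusted p under 0.05. The barcodes were split after the data were seen, and in this fit Ccr2 passed the filter on low counts through WT libraries alone. The p-value is therefore a description only. Leaving out each library in turn gave -2.87 to -1.98. With day as a block, the library left alone in its day tells nothing of genotype, so each of these fits rests on the other days. Monocyte markers other than Ly6c2 and Plac8 summed to 107 and 99.6 CPM, 221 and 246, and 162 and 70.6 in these barcodes. Microglial markers summed to 392 and 428, 508 and 224, and 441.5 and 454. In Cd8a barcodes with no such transcript the difference was -2.15 ± 0.71 and not called (adjusted p = 0.0591). In this set 17 WT and 6 KO barcodes of day 0 held 0 Ccr2 UMIs, 29 and 18 of day 13 held 30 and 1, and 193 and 8 of day 21 held 104 and 3. Without the KO library of day 21 the difference was -3.72, a value that rests on the libraries of day 13 alone.

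**Figure D5:**
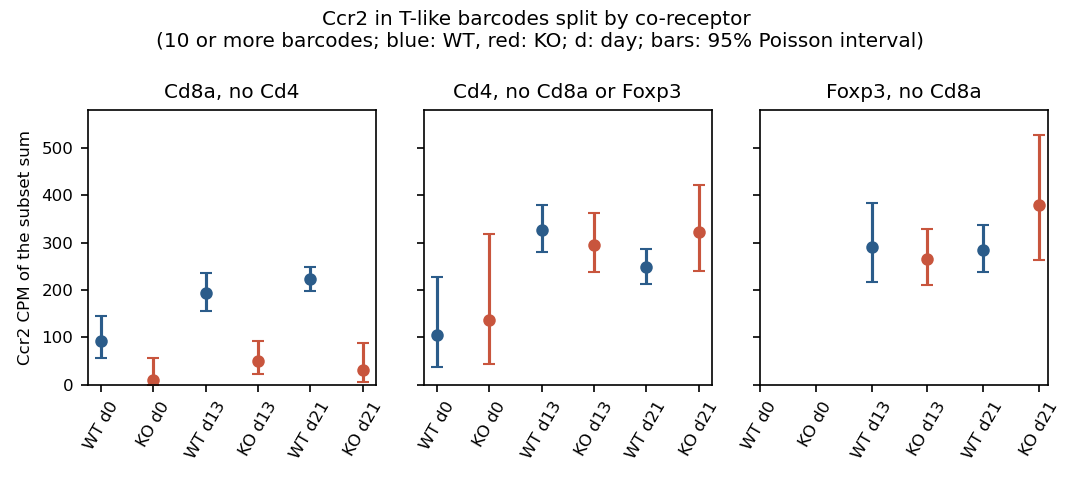
Ccr2 level (CPM of the summed subset) in T-like barcodes split by Cd8a, Cd4 and Foxp3, for each library with 10 or more barcodes, with 95% Poisson intervals as bars. With Cd8a the KO libraries lie between 9.96 and 49.2 CPM and the WT libraries between 93.4 and 223, while with Cd4 the KO libraries lie between 137 and 322 and overlap the WT libraries.

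Barcodes with Cd4, and without Cd8a and Foxp3, did not show that order. Ccr2 stood at 105 and 137 CPM on day 0 from 19 and 10 barcodes, at 327 and 295 on day 13, and at 248 and 322 on day 21. The ratios were 1.31 (0.315 to 5.14), 0.904 (0.692 to 1.17) and 1.30 (0.934 to 1.78), and edgeR gave 0.13 ± 0.21 over days (adjusted p = 0.9995). Barcodes with Foxp3, the factor of regulatory T cells, had 291 and 265 CPM on day 13 and 285 and 379 on day 21, with ratios of 0.910 and 1.33. Whether the genotype difference itself differed between the Cd8a and Cd4 sets was not tested.

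Other genes of the Cd8a barcodes also differed between the libraries, and were looked at after the Ccr2 values were seen. Cxcr6, a receptor of effector and resident T cells, stood at 224 and 249 CPM on day 0, 542 and 153 on day 13, and 783 and 292 on day 21. Ccl5, a chemokine of effector T cells, stood at 3356 and 1852, 11340 and 5288, and 14020 and 7189 CPM. On days 13 and 21 both were thus lower in KO. Cd8b1, the other chain of the co-receptor, stood at 1522 and 1553, 1389 and 760.0, and 1203 and 988 CPM.

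Ccl8 came from a small number of barcodes. In all libraries 122 barcodes held 1077 UMIs, and the 18 barcodes with 10 or more held 878 of them. These 18 were 9 and 5 barcodes of WT and KO on day 13 and 3 and 1 on day 21, and none on day 0. In the KO library of day 21, 1 barcode held 109 of 127 UMIs, 85.8%. They fell into many classes, with 4 T-like, 7 mixed, 3 ungated, 2 border-associated macrophage-like, 1 B-like and 1 microglia-like barcode. The edgeR change of Ccl8 in microglia-like barcodes, fitted on 0, 0, 40, 8, 1 and 8 UMIs, is therefore not used here.

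Several macrophage genes were present in most of the 18 barcodes rich in Ccl8. Ms4a7, a gene of border-associated and monocyte-derived macrophages, was found in 16 of 18 (88.9%), against 590 of 16100 other barcodes of days 13 and 21 (3.67%). Apoe, an apolipoprotein of macrophages, was found in all 18, against 66.8% of the others. Ccl12 and Saa3 were found in 12 each, against 31.5% and 10.7%. Mrc1, the mannose receptor of border-associated macrophages, and Ccl7 were found in 11 each, against 3.08% and 7.02%. Ccl2 and Pf4 were found in 6 each, against 22.1% and 0.447%, and the Ccl2 level was 128 CPM against 153. The microglial marker P2ry12 and the T marker Cd3e were found in 5 each, against 34.9% and 16.5%. The median depth of the 18 barcodes was 8071 UMIs, against 3618, so these shares were read at unequal depth. Only 7 barcodes in all passed the gate for border-associated macrophages, so that class was not compared.

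The genes around the axis are given from lists chosen with earlier results of these data known. In microglia-like barcodes, edgeR's quasi-likelihood test called 6 of 11 measured other chemokines higher and 3 lower on day 13 than on day 0. The shares over all genes were 16.2% higher and 13.2% lower. Of 23 measured inducers of these ligands, a list of cytokines, their receptors, Toll-like receptors, signalling, NF-kB and AP-1 genes and a regulator of mRNA decay, 6 were higher and 8 lower. Of 12 genes of CCR2 signalling and desensitization, 1 was higher and 1 lower. Of 11 measured monocyte genes that travel with Ccr2, 5 were higher and 3 lower, and of 20 dissociation genes none was higher and 18 were lower.

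Between genotypes on day 13, 3 of 11 other chemokines were 1.5-fold or more higher and 2 lower in KO microglia-like barcodes, with a median log2 ratio of 0.13 beside 0.01 over all genes, of which 8.84% were that far apart. Cxcl2, which draws neutrophils, stood at 8.05 CPM in WT and 45.8 in KO, and Cxcl13, which draws B cells, at 36.9 and 14.2. Ccl3, a macrophage inflammatory chemokine, stood at 188 and 362.5 CPM. Of 22 inducers, 4 were higher and 1 lower, which was Il1b at 62.4 and 35.0 CPM. Of those 4, Tnf stood at 45.9 and 72.1 CPM, and Fos, Jun and Zfp36 are also on the dissociation list. Of the dissociation genes, 11 of 19 were higher and none lower, with a median of 0.62, for example Fos at 230.0 and 618.5 CPM and Dusp1 at 62.4 and 201.4.

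On day 21, 2 of 12 other chemokines were higher and 7 lower in KO microglia-like barcodes, with a median of -0.84 beside 0.07 over all genes, of which 16.8% were 1.5-fold or more apart. Ccl5 stood at 879 CPM in WT and 172.5 in KO, and Cxcl2 at 36.9 and 6.97. Of 22 inducers, 4 were higher and 4 lower, among the latter Il1b at 83.2 and 19.97 CPM. Of 20 dissociation genes, 9 were higher and none lower. The day 21 list of chemokines and the dissociation list thus lay on opposite sides.

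In monocyte/macrophage-like barcodes, 5 of 12 other chemokines were higher in KO on day 13 and none lower, with a median of 0.30, and none of 11 was higher and 8 were lower on day 21, with a median of -0.91. Over all genes 3.91% were 1.5-fold or more apart on day 13 and 20.2% on day 21. Cxcl10, an interferon-induced ligand of CXCR3, stood at 1403 CPM in WT and 191.6 in KO on day 21, and Ccl24, a ligand of CCR3, at 64.6 and 0.953. Il1b stood at 678.5 and 237 CPM. All 3 measured receptors and scavengers of these ligands were lower in KO on day 21, for example Ccr1 at 369 and 119 CPM and Ccrl2, which binds chemoattractants without signalling, at 57.1 and 21.0. On day 13 none of the 3 was 1.5-fold apart. Of 12 monocyte genes that travel with Ccr2, 2 were higher and 2 lower on day 21. Of 22 inducers, none was higher and 8 were lower, and of 10 signalling genes 1 was lower, Jak2, at 52.3 and 18.1 CPM.

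The genes whose level most resembled each member were named over 41 summed classes of the 6 libraries, by Pearson correlation of log2 levels across 10451 genes. These sums share libraries and cell classes, so the values are a description. Ccr2 was most like S100a4 (0.925), a calcium-binding protein of motile leukocytes, Ahnak (0.899) and Capn2 (0.864). Ccl2 was most like Fcgr1 (0.873), the high-affinity receptor for IgG, Tbxas1 (0.845) and C3ar1 (0.845), and the value for Ccl7 was 0.843. Ccl12 was most like the complement genes C1qa (0.889), C1qb (0.883) and C1qc (0.880), Ccl7 like Chst1 (0.838) and C4b (0.827), and Ccl8 like Saa3 (0.629).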

How the data were processed

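The deposited matrices are raw counts of UMIs, whole numbers that the authors had not normalized. Cell Ranger 2.0.2 and mm10 are named in the submitters' processing notes, without further options. The 5 genes and the gene lists were chosen with earlier results of these data known. Libraries held 6314810 to 24234719 UMIs after filtering, and pairs of libraries shared 5 to 32 barcodes, 0.226% to 0.858% of the smaller one.

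The cell filter asked for 200 or more genes and no more than 10% mitochondrial UMIs. A barcode joined a class when it held a UMI of enough markers (for example 5 of 10 for microglia, 5 of 12 for monocytes and macrophages, 3 of 9 for conventional dendritic, 3 of 8 for T, 3 of 8 for NK and 3 of 6 for B). The numbers required were set with the data in hand. No doublet caller was run, and barcodes that passed gates of different lineages were kept apart as mixed. Summing counts by class within each library gave the tested values, and CPM is relative to that sum.

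Sums were tested with edgeR 4.0.16 (glmQLFit, TMM, filterByExpr, R 4.3.3) where both libraries of a day had 50 or more barcodes (the subsets with Cd8a or Cd4 were fitted on all 6 libraries, some with fewer), with Benjamini-Hochberg adjustment over all genes and a threshold of 0.05. Genotype was tested with day as a block and days with genotype as a covariate. Every group held 1 library, so p-values measure the spread between libraries of different groups. Within a day, KO to WT ratios have exact conditional intervals, levels exact Poisson and shares exact binomial (Clopper-Pearson) intervals at 95%. All intervals, and floors of 3 counts, cover counting error only, and UMIs of 1 barcode are not independent cells. The fits were tested on simulated counts.

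Genes other than the members were named from 6 lists where they were 1.5-fold or more apart with 10 CPM or more in either library, or as the closest in level to a member. Ratios of list genes used log2 of CPM with a pseudocount of 1. Genes described beside Ccl8, in the Cd8a barcodes and as class subsets were chosen after seeing values. Alternatives were DESeq2 1.42.0, RLE size factors, no filter on low counts, Leiden clusters in place of gates (scanpy 1.11.5), 1 more marker, a stricter cell filter (500 genes, 5% mitochondrial), barcodes above the 95th percentile of UMIs left out, UMIs per cell, UMIs without mitochondrial and ribosomal genes, and each library left out. Sequences are RefSeq's or were read from build GRCm38. A few genes of the lists are not reported here.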

Additional observations from a re-analysis of the deposited data

Results flagged for a closer look

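The KO to WT ratios of several members lay above 1 on day 13 and below 1 on day 21, or the reverse, with intervals for counting error that excluded 1 on both days. In microglia-like barcodes Ccl2 was at 1.5 on day 13 and 0.652 on day 21, Ccl7 at 2.53 and 0.403, and Ccl12 at 1.09 and 0.600. In monocyte/macrophage-like barcodes Ccl2 was at 1.74 and 0.235, while Ccr2 went the other way, at 0.785 and 1.28. Each ratio sets 1 library against 1. The difference between the days was not tested, since no group had a second library. The Ccl12 ratio of day 13 was close to 1 and was 1.02 without the 5 richest barcodes of each library.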

How the results depend on the processing

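No paired analysis was possible because each group held 1 library and the labels give no replicate numbers, so that the day, already the block of the genotype fits, is the only link between libraries. The rise of Ccl2, Ccl7 and Ccl12 in microglia-like barcodes from day 0 to 13 kept its direction and call in each alternative fit run. The rise of Ccl7 and Ccl12 to day 21, and of Ccr2 in T-like barcodes, did the same. Those fits used DESeq2, RLE factors, no filter on low counts, Leiden clusters or a library left out. The other alternatives listed above entered ratios, levels or shares only. Leaving out 1 library was not run for monocyte/macrophage-like, conventional dendritic-like and NK-like barcodes, whose fits on 4 libraries would have no residual degrees of freedom. The cause of the changes below was not tested.

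With Leiden clusters the microglial genotype difference of Ccl7 was -0.01, that of Ccr2 in monocyte/macrophage-like cells -0.08 and that of Ccl8 in T-like cells 1.14, and the microglial Ccl2 change to day 21 was 1.20 (adjusted p = 0.012 in edgeR). Counts of called genes were 2 for microglial genotype, 171 for monocyte/macrophage-like day 21 against 13, 304 for T-like day 21 and 168 for NK-like. Ratios were 0.687 and 0.565 for microglial Ccl2 on days 0 and 21, 0.294 for Ccl7 on day 21, 0.727 for Ccr2 on day 13 and 0.311 for Ccl2 on day 21 in monocyte/macrophage-like cells, and 0.883 (T-like) and 1.37 (dendritic-like) for Ccr2 on day 21.

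Without a filter on low counts edgeR called the microglial Ccl2 change to day 21 (0.83, adjusted p = 3.4e-05), the changes from day 13 to 21 of Ccl2 (-1.02, 6.8e-07), Ccl7 (-1.41, 9.0e-13) and Ccl12 (-0.55, 0.0407), Ccr2 in dendritic-like barcodes (1.28, 5.5e-08), and in monocyte/macrophage-like barcodes Ccl7 between genotypes (-1.56, 9.3e-05) and Ccl2 (0.71, 0.0291) and Ccl7 (2.08, 9.0e-11) between days. In monocyte/macrophage-like barcodes Ccl2 and Ccl7 were higher on day 21 than on day 13 in WT and lower in KO. The genotype difference of Ccr2 there was -0.02. Counts became 66 and 578 in microglia-like (genotype, day 21 against 13), 31 and 710 in monocyte/macrophage-like, 344 in dendritic-like and 100 in Cd8a barcodes. DESeq2 gave 1.07 for NK-like Ccr2 (adjusted p = 0.0786) and 1.30 for dendritic-like Ccr2 (0.00865), with 1389, 664 and 71 microglial genes for days 13 and 21 against 0 and 21 against 13, 85 in monocyte/macrophage-like, 493 and 273 in T-like, 98 in NK-like, 20 in dendritic-like and 32 in Cd8a barcodes. RLE factors gave 1 in dendritic-like and 32 in Cd8a barcodes. The main counts in the order first named were 4, 312, 784 and 318, with 3071, 1377 and 136 for microglial days, 1214 for T-like day 13, 0 in dendritic-like and 21 in Cd8a barcodes.

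Leaving out the deepest barcodes gave microglial ratios of 0.747 for Ccl12 on day 0, 1.69, 3.27 and 1.19 for Ccl2, Ccl7 and Ccl12 on day 13, 0.550 for Ccl12 on day 21, and 2.65 for monocyte/macrophage-like Ccl7 on day 13. Without the 5 richest barcodes, Ccl12 was 1.02 in microglia-like barcodes on day 13, Ccl2 0.151 and Ccl7 0 (by construction, since 5 KO barcodes held all of it) in monocyte/macrophage-like ones on day 21, and T-like Ccr2 0.217 on day 0. With 1 more marker, day 21 ratios were 0.773, 0.523 and 0.684 for microglial Ccl2, Ccl7 and Ccl12 and 1.96 for dendritic-like Ccr2. As UMIs per cell they were 0.790 and 0.727 for microglial Ccl2 and Ccl12 on day 21, 1.5 and 0.325 for Ccl2 and 0.678 and 1.76 for Ccr2 in monocyte/macrophage-like barcodes on days 13 and 21, and 0.742 and 2.16 in dendritic-like ones. T-like barcodes with no microglial or monocyte marker, Ly6c2 and Plac8 not counted, gave Ccr2 ratios of 0.571 and 0.975. In Cd8a barcodes with no myeloid marker, also chosen after the data were seen, the genotype call of Ccr2 was lost.

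Leaving out 1 library gave microglial genotype differences of -0.73 to -0.05 for Ccl2, -0.78 to 1.05 for Ccl7 and -0.69 to -0.20 for Ccl12. In these fits the lone library of a day is assumed to vary like the others. The Ccl2 change to day 21 ran from 0.50 (without WT of day 21) to 1.23 (without WT of day 0), both called. From day 13 to 21, Ccl2 ran from -1.63 (without WT of day 13) to -0.31, Ccl7 from -2.59 (without WT of day 21) to -0.14 and Ccl12 from -0.94 (without WT of day 13) to -0.13. The genotype difference of Ccr2 ran from -0.42 to 0.03 in T-like and from -0.08 to 0.37 in Cd4 barcodes. Counts of called genes ran from 24 to 190, 1218 to 4355, 577 to 2058 and 145 to 1285 in microglia-like barcodes (genotype, then the 3 pairs of days), 487 to 1259 and 255 to 862 in T-like ones and 32 to 110 in Cd8a ones.

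Of 142 ratios, 31 moved by more than their interval and 111 did not. Of 48 levels 16 moved, and of 72 shares 26 moved. Depth limits Ccl7 in monocyte/macrophage-like and Ccr2 in Cd8a barcodes, which rest on under 100 UMIs in 5 of 6 libraries, and Ccl8, most of which came from 18 barcodes.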
